A study of Mus musculus with 16 samples.

Results

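The 10 genes described here form the core loop of the circadian clock and its best known direct output: Arntl, Clock, Per1, Per2, Per3, Cry1, Cry2, Nr1d1, Nr1d2 and Dbp. They were taken by symbol from a table of 12321 genes, all 10 were found in it, and all 10 passed the filter on low values that left 12320 genes for testing. Transcripts were counted in LKR10, a mouse lung adenocarcinoma line, in 16 libraries that make 4 groups of 4. Cells grown in 3D, in 0.5% methylcellulose, carried the hairpin shAnkrd35 or the control hairpin shGFP, and so did cells grown as a 2D monolayer. All groups, controls included, had been transduced with a pLKO lentiviral vector, kept for 48 h in puromycin at 4 µg/ml and then cultured for 96 h in serum-containing DMEM before RNA was harvested. The number of different hairpins against Ankrd35, the time of day of harvest and any synchronization of the cells are not stated in the labels. Each library is therefore a single time point of a culture, in which phase and amplitude of a rhythm cannot be seen, and since nothing says that the replicates were separate cultures, p-values reflect library-to-library spread that may be only technical.

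The clock is a loop of transcription and delayed repression. ARNTL (also called BMAL1) and CLOCK bind E-box elements as a pair and drive the Per, Cry, Nr1d and Dbp genes. PER and CRY proteins then enter the nucleus and silence that pair, the nuclear receptors REV-ERB alpha and beta (Nr1d1, Nr1d2) repress Arntl, and DBP activates genes through D-box elements. In the lung the clock runs in airway epithelium and shapes its inflammatory response, and in mice loss of Arntl or Per2 has been reported to speed the growth of lung adenocarcinoma.

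Letter matches to elements of the loop are shown for 5 members whose promoter windows hold one, and a further match in Clock is named but not printed. Promoter windows from RefSeq (GRCm38.p6, 250 bases before to 50 after a start) were matched for 9 of the 10 members, all but Per2, in 13 windows. Both strands were searched for the E-box CACGTG, the D-box TTANGTAA, the REV-ERB core site AGGTCA and the cAMP response element TGACGTCA. Capitals mark the matches, and each stretch is read 5′ to 3′ on the strand of its gene.
Cry1 (chr10:85185084-85185139, minus strand): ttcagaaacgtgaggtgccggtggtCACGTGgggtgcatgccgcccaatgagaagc
Per1 (chr11:69098758-69098842, plus strand): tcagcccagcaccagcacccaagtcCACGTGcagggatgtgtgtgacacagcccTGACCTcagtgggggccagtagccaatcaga
Per3 (chr4:151044791-151044895, minus strand): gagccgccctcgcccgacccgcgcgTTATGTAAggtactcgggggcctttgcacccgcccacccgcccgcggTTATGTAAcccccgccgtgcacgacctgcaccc
Nr1d2 (chr14:18239153-18239208, minus strand): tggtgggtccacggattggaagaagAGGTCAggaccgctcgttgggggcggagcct
Arntl (chr7:113207530-113207559, plus strand): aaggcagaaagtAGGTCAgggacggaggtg
Cry1 and Per1 each hold 1 E-box, which begins at position -60 in Cry1 and -166 in Per1 counted from the RefSeq start as 0, and Per3 holds 2 D-boxes in the same orientation. The core site is written TGACCT where it lies on the other strand. It is present in the Nr1d2 window, 1 of 2 Per1, 1 of 2 Arntl and 1 of 3 Clock windows. Among all 32851 promoter windows 7.15% held the E-box, 2.32% the D-box, 16.3% the core site and 1.79% the cAMP response element, which no member window held. These are letters found in a window and not measured binding sites, and 7 of the 13 windows held none of the 4 motifs.

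Libraries held 13.82 to 28.72 M reads assigned to genes. Levels are CPM, reads scaled to the effective library size, and fold changes are on the log2 scale from limma over all 12320 genes, with Benjamini-Hochberg adjusted p under 0.05 called higher or lower. The hairpin's target could not check the labels, because Ankrd35 had 9 to 12 reads per library in 3D shAnkrd35 against 14 to 17 in 3D shGFP. That is 0.501 ± 0.0929 and 0.597 ± 0.0546 CPM (n = 4, SD), with p = 0.143 in an exact two-sided permutation test. In 2D it had 1 to 7 reads with shAnkrd35 against 2 to 7 with shGFP (p = 0.657 in the same exact permutation test), so each hairpin direction below rests on the labels. The epithelial markers Krt8, Krt18, Krt19 and Cdh1 were abundant, while Epcam and Krt7 lay near 1 CPM and of 4 lung epithelial markers only Foxa2 was among the genes analysed. No leukocyte, endothelial or erythroid marker of the lists was among them, and the 4 fibroblast markers present summed to 11.2 to 43.4 CPM with shAnkrd35 and 22.8 to 25.5 CPM with shGFP in 3D, and to 16.7 to 18.4 and 25.7 to 29.2 CPM in 2D. Among 2D shAnkrd35 libraries replicate 1 lay farthest out, at a median distance of 0.144 on the log2 scale from the group median over genes, against 0.037 to 0.080 in the other 15 libraries. Libraries also differed in how levels followed the GC content of genes. This GC slope, Spearman's rho across genes between GC content and a gene's deviation from its mean, was -0.43 to -0.21 in 3D shAnkrd35, -0.49 to -0.39 in 3D shGFP, 0.38 to 0.58 in 2D shAnkrd35 and -0.20 to 0.38 in 2D shGFP.

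In 2D, 4 of the 10 clock genes were lower with shAnkrd35 than with shGFP and none was higher: both activators, Arntl and Clock, and the repressors Per2 and Cry1. Cry1 fell to 0.552 of its control level and Arntl to 0.662. In 3D a different selection was called: Per1 and Dbp were lower and Cry2 was higher with shAnkrd35. Of all genes tested 57.9% were called in 2D, 28.8% lower and 29.0% higher, and 29.7% in 3D, 14.6% lower and 15% higher, so the shares of 40% and 30% among the clock genes are near or below that background. The fit shares a single spread per gene over all 4 groups, so calls and intervals in 3D also hold the spread in 2D. The median SD over genes (log2) was 0.143 in 2D shAnkrd35, 0.105 in 2D shGFP, 0.096 in 3D shAnkrd35 and 0.07 in 3D shGFP. With only the groups compared in the fit, 47.9% of all genes were called in 2D and 41.3% in 3D. In 2D the groups of Arntl, Per2 and Cry1 did not overlap, all lower with shAnkrd35, where 17.5% of all genes were lower and 22.3% higher without overlap. In 3D this held for Per1 and Dbp, lower, and Cry2, higher, where 19.4% of all genes were lower and 18.8% higher without overlap. The median log2 fold change of the 10 was -0.28 in 2D and -0.12 in 3D, beside 0.01 and -0.00 over all genes. Per1, Per2, Per3 and Nr1d2 were higher in 3D than in 2D with either hairpin. Without replicate 1 of 2D shAnkrd35, the library that stood out, Arntl, Clock, Per2 and Cry1 were still called in 2D (-0.55, -1.33, -0.38 and -0.87), and Nr1d1 and Nr1d2 were called as well, making 6 calls against 4 while the share of all genes called was 63.2% against 57.9%.

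**Figure D1:**
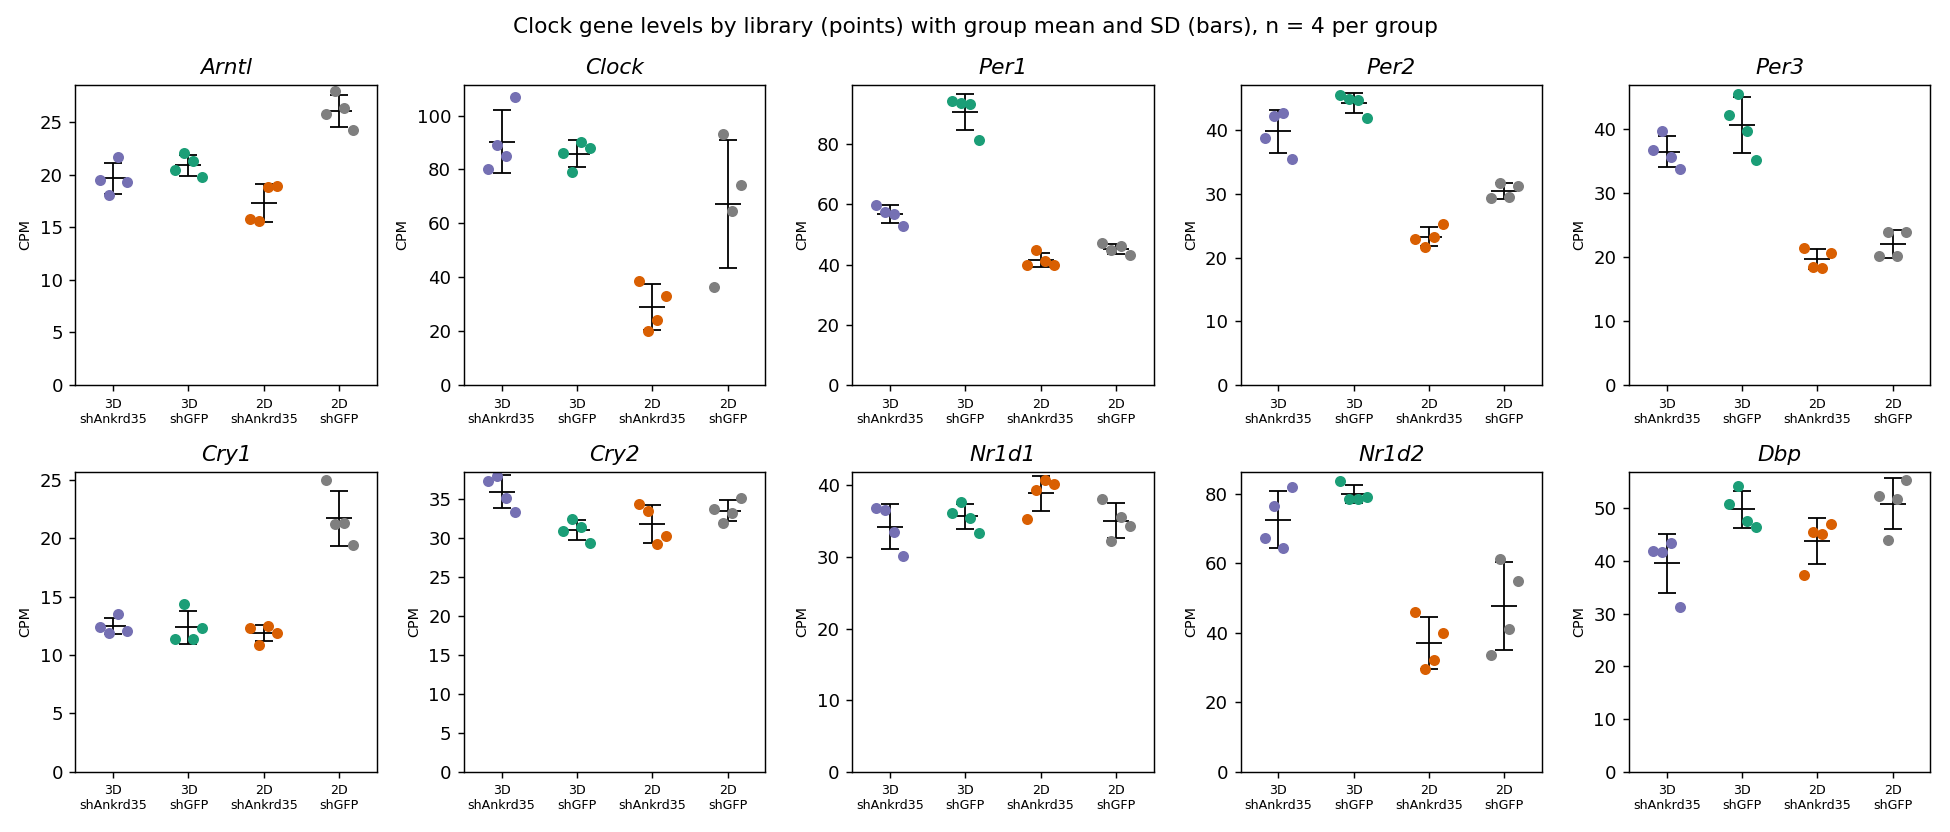
Levels of the 10 clock genes in CPM (vertical axes, starting at 0) in 3D shAnkrd35, 3D shGFP, 2D shAnkrd35 and 2D shGFP libraries; points are libraries in the order of replicate numbers, and bars give the group mean and SD (n = 4). Per1 lies between 81.5 and 94.2 CPM in 3D shGFP, above every library of the other groups, and Cry1 lies between 19.4 and 25 CPM in 2D shGFP, above every library of the other groups.

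Arntl, whose loss alone abolishes the rhythm in mice, had 15.8, 15.6, 18.8 and 18.9 CPM in replicates 1 to 4 of 2D shAnkrd35, against 25.8, 27.9, 26.3 and 24.2 CPM in 2D shGFP. No library of 2D shAnkrd35 reached the lowest of 2D shGFP. The log2 fold change was -0.60 ± 0.08 (SE, adjusted p = 7.94e-06), and as in any bulk sample less RNA per cell and fewer cells with the RNA cannot be told apart. The 3D levels were 19.5, 18.1, 21.7 and 19.3 CPM with shAnkrd35 and 20.4, 22.1, 21.3 and 19.8 CPM with shGFP. These groups overlap (-0.09, 95% interval -0.25 to 0.07, adjusted p = 0.421). The difference between the hairpin effects, 3D minus 2D, was 0.50 ± 0.11 (adjusted p = 0.00245). With shGFP, Arntl was lower in 3D than in 2D by 0.32 on the log2 scale (-0.32 ± 0.08, adjusted p = 0.00172). With shAnkrd35 it was higher in 3D (0.19 ± 0.08, adjusted p = 0.0379), but the groups overlap. That call was lost with voom weights (adjusted p = 0.0559), with only the 2 groups fitted (0.0919), under quantile normalization (0.07, 0.417) and without any 1 of 5 libraries, replicates 1 and 2 of 2D shAnkrd35 and 1, 3 and 4 of 3D shAnkrd35.

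Clock, the other activator and a histone acetyltransferase, had the widest spread of the 10 in both 2D groups. In 2D it had 38.6, 20, 24.1 and 33.1 CPM with shAnkrd35, against 36.5, 93.1, 64.7 and 74.4 CPM with shGFP. Replicate 1 of each group had almost the same level, and the groups overlap there alone. The fitted fall was -1.18 ± 0.24 (adjusted p = 0.00089), and between -1.45 (without replicate 1 of 2D shGFP) and -1.0 (without its replicate 2) when 1 library was left out. The SD of Clock in 2D shGFP, 0.576 on the log2 scale, was at percentile 96.5 of all genes, where the median gene had 0.105. In 3D it had 80.1, 89.0, 84.9 and 107 CPM with shAnkrd35 and 86.2, 78.9, 90.2 and 88.1 CPM with shGFP, a log2 fold change of 0.06 with an interval of -0.46 to 0.58. The 3D minus 2D difference was 1.67 ± 0.24 with shAnkrd35 (adjusted p = 2.39e-05), and the groups do not overlap. With shGFP it was 0.43 ± 0.24 (adjusted p = 0.129), and the difference of hairpin effects was 1.24 ± 0.34 (adjusted p = 0.0132). Without replicate 2 of 2D shGFP the growth difference with shGFP was called (0.61, adjusted p = 0.0209), and without replicate 1 it was 0.16.

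Clock transcripts are poor in GC (40.9%, percentile 9.0 of all genes), and the level followed the GC slope of the library. Among the members, a negative correlation with the slope was not limited to those poor in GC. Over the 16 libraries, Pearson's r of log2 level with the slope was -0.94 for Clock and -0.98 for Nr1d2. It was -0.93 for Per2, -0.91 for Per3 and -0.78 for Per1, which have 54.3%, 52.4% and 59.4% GC. For Nr1d1 it was 0.63, and for Arntl, Cry1, Cry2 and Dbp -0.23, 0.17, -0.09 and 0.1. These r also hold differences between groups. Within 2D shAnkrd35, Per1 was higher the higher the slope. It had 39.9, 40, 41.3 and 44.7 CPM at slopes of 0.38, 0.43, 0.50 and 0.58. In 2D shGFP Per1 had 44.8, 43.2, 46.0 and 47.1 CPM at slopes of -0.20, -0.04, 0.18 and 0.38. In the same order of libraries Per2 had 31.8, 31.3, 29.6 and 29.3 CPM, and Per3 23.9, 23.9, 20.1 and 20.1 CPM. Per2 and Per3, unlike Per1, were thus lower at the higher slopes of 2D shGFP. Within 2D shGFP, Clock levels of 36.5, 64.7, 74.4 and 93.1 CPM went with slopes of 0.38, 0.18, -0.04 and -0.20. Within 2D shAnkrd35, levels of 38.6, 33.1, 24.1 and 20 CPM went with slopes of 0.38, 0.43, 0.50 and 0.58. With a trend on transcript length and GC content removed from each library, Clock was still lower with shAnkrd35 in 2D (-0.60, adjusted p = 0.000138). The growth difference with shAnkrd35 became 0.72, that with shGFP 0.05 and the difference of effects 0.67. The part of the GC slope in the Clock values was not otherwise tested.

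**Figure D2:**
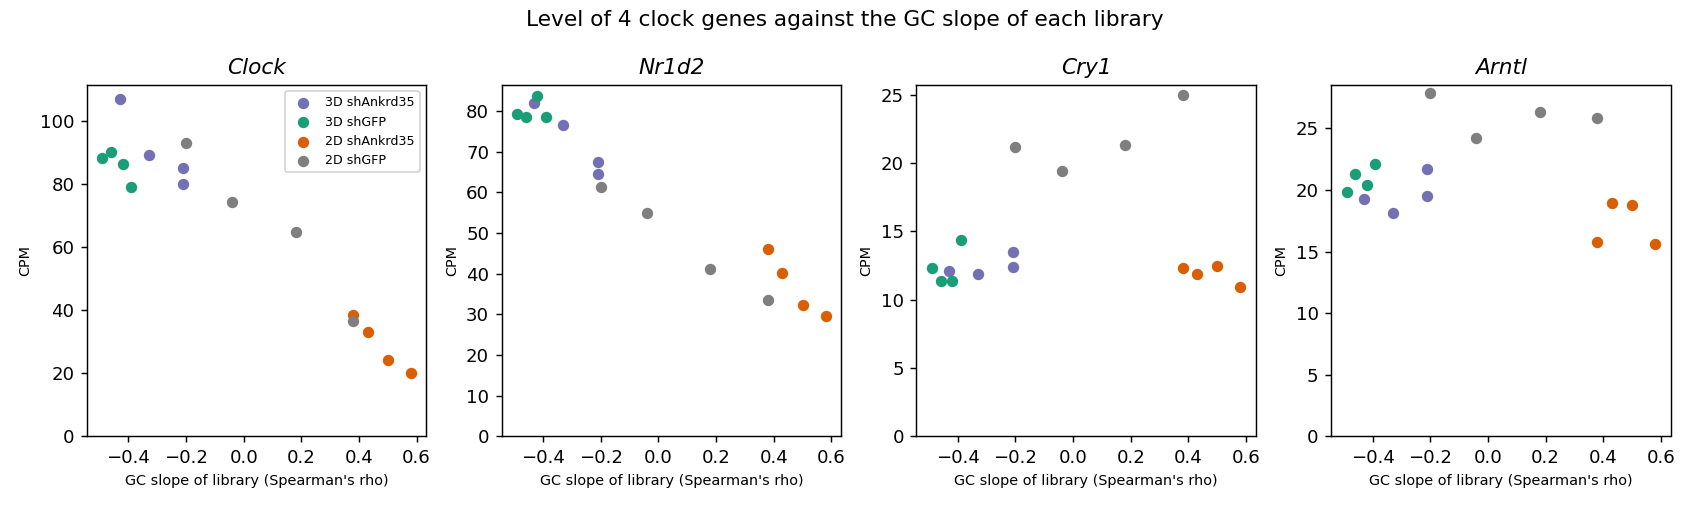
Levels in CPM (vertical axes) of Clock, Nr1d2, Cry1 and Arntl against the GC slope of each library (horizontal axes, Spearman's rho across genes), with 1 point per library coloured by group. Within each 2D group Clock and Nr1d2 are lower the higher the slope, and the part of the slope in these levels was not tested.

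Per1 encodes a repressor and is quickly induced by outside signals. It had 59.8, 57.5, 56.9 and 52.7 CPM in 3D shAnkrd35, against 94.2, 93.7, 93.2 and 81.5 CPM in 3D shGFP. The lowest control library lay far above the highest shAnkrd35 library, and Per1 fell to 0.627 of its control level (-0.67 ± 0.06, adjusted p = 1.55e-07, percentile 2.5 of all fold changes). In 2D it had 39.9, 44.7, 41.3 and 40 CPM with shAnkrd35 and 47.1, 44.8, 46.0 and 43.2 CPM with shGFP. That difference missed the threshold (-0.13 ± 0.06, adjusted p = 0.0639). It passed without replicate 2 of 2D shAnkrd35 (adjusted p = 0.0272), without replicate 4 of 3D shGFP (0.0402) and with the length and GC trend removed (-0.19, 0.00207). The effect of shAnkrd35 was more negative in 3D than in 2D by 0.55 on the log2 scale (-0.55 ± 0.08, adjusted p = 0.000118). Per1 was higher in 3D than in 2D with shGFP, 90.7 against 45.3 CPM on average (1.0 ± 0.06, adjusted p = 1.24e-10). With shAnkrd35 the growth difference was 0.45 ± 0.06 (adjusted p = 2.73e-06).

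Per2, a repressor like Per1, was called between hairpins in 2D. It had 22.9, 21.7, 23.3 and 25.3 CPM with shAnkrd35, against 29.3, 31.8, 29.6 and 31.3 CPM with shGFP, and the groups do not overlap (-0.39 ± 0.06, adjusted p = 7.70e-05). The 3D levels were 38.8, 42.3, 42.7 and 35.5 CPM with shAnkrd35 and 45.6, 44.9, 44.8 and 42.0 CPM with shGFP. Replicates 2 and 3 with shAnkrd35 lay above replicate 4 with shGFP, so these groups overlap, and the difference lay near the threshold (-0.16 ± 0.06, adjusted p = 0.0706). It passed with voom weights (adjusted p = 0.0495), with only the 3D groups fitted (0.0407), without replicate 3 of 3D shAnkrd35 (-0.19, 0.0445) and with the length and GC trend removed (-0.25, 0.00601). For Per2 the difference between the hairpin effects, 3D minus 2D, did not pass (0.23 ± 0.09, adjusted p = 0.0534, and 0.12, 0.335 with that trend removed), although it passed with a mean of at least 5 CPM required (0.0487) and without replicate 1 of 2D shGFP, 4 of 2D shAnkrd35 or 4 of 3D shAnkrd35. Every 3D library had more Per2 than every 2D library, with log2 differences of 0.77 ± 0.06 with shAnkrd35 (adjusted p = 1.88e-08) and 0.54 ± 0.06 with shGFP (adjusted p = 1.09e-06).

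Per3, the period gene with the mildest role in the mouse clock, varied with growth type while no hairpin difference passed. It had 36.7, 39.7, 35.6 and 33.8 CPM in 3D shAnkrd35 and 42.2, 45.5, 39.7 and 35.1 CPM in 3D shGFP. In 2D it had 21.4, 18.4, 18.3 and 20.6 CPM with shAnkrd35 and 20.1, 23.9, 20.1 and 23.9 CPM with shGFP. No 2D library came near the lowest 3D library. The 3D minus 2D difference was 0.89 ± 0.09 with shAnkrd35 (adjusted p = 1.57e-07) and 0.88 ± 0.09 with shGFP (adjusted p = 1.36e-07). The hairpin differences were -0.15 in 3D, with an interval of -0.34 to 0.03, and -0.16 in 2D, with the same interval, so falls of up to 0.34 remain within the intervals. With the length and GC trend removed, the 3D difference passed (-0.23, adjusted p = 0.0349). The GC slope also differed between growth types, and its part in the growth differences of the Per genes was not tested. With the trend removed these were 0.61 for Per1, 0.80 for Per2 and 0.89 for Per3 with shAnkrd35, and 1.21, 0.68 and 1.0 with shGFP.

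Cry1, the stronger of the cryptochrome repressors, stood out by its control group in 2D. It had 12.3, 10.9, 12.5 and 11.9 CPM in 2D shAnkrd35, against 25, 21.2, 21.3 and 19.4 CPM in 2D shGFP. All 4 control libraries lay above all shAnkrd35 libraries (-0.86 ± 0.09, adjusted p = 6.90e-07). In 3D the level was 12.4, 11.9, 13.5 and 12.1 CPM with shAnkrd35 and 11.4, 14.4, 11.4 and 12.3 CPM with shGFP, with no difference past the threshold (0.02, interval -0.17 to 0.21). The hairpin effects differed by 0.87 ± 0.13 (adjusted p = 9.57e-05). The growth difference was -0.81 ± 0.09 with shGFP (adjusted p = 5.31e-07) and 0.07 with shAnkrd35 (interval -0.12 to 0.26).

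Cry2, the other cryptochrome, moved little. It had 37.4, 38.0, 35.2 and 33.4 CPM in 3D shAnkrd35, against 30.9, 32.5, 31.5 and 29.4 CPM in 3D shGFP. The groups do not overlap, and Cry2 was the single clock gene called higher with shAnkrd35 (0.21 ± 0.06, adjusted p = 0.0153). That call was lost without replicate 2 of 3D shAnkrd35 (adjusted p = 0.052), without replicate 4 of 3D shGFP (0.0541) and with the length and GC trend removed (0.13, 0.0814). The 2D levels were 34.4, 33.5, 29.3 and 30.3 CPM with shAnkrd35 and 33.8, 32.0, 33.2 and 35.2 CPM with shGFP (-0.08 ± 0.06, adjusted p = 0.301). With the trend removed this became a called fall (-0.19, adjusted p = 0.00579). The hairpin effects differed by 0.29 ± 0.09 (adjusted p = 0.0183). With shAnkrd35, Cry2 was higher in 3D than in 2D (0.18 ± 0.06, adjusted p = 0.0164) with overlapping groups, a call lost with only those groups fitted (adjusted p = 0.0538), under quantile normalization (0.09, 0.206) and without replicate 3 of 2D or 2 of 3D shAnkrd35. With shGFP the growth difference was -0.11 ± 0.06 (adjusted p = 0.124), which passed under quantile normalization (-0.18, 0.0213).

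The 2 REV-ERB genes, repressors of Arntl, did not vary together. Nr1d1 had 36.8, 36.6, 33.5 and 30.1 CPM in 3D shAnkrd35 and 36.2, 37.7, 35.4 and 33.4 CPM in 3D shGFP. In 2D it had 35.3, 39.4, 40.7 and 40.2 CPM with shAnkrd35 and 38.1, 32.2, 35.6 and 34.4 CPM with shGFP. All 4 groups overlap, and neither hairpin difference passed (-0.06, adjusted p = 0.573 in 3D and 0.15, 0.0879 in 2D). The 2D difference passed without replicate 1 of 2D shAnkrd35 (0.19, adjusted p = 0.0258) or of 2D shGFP (0.19, 0.04), and was -0.00387 with the length and GC trend removed. With shAnkrd35, Nr1d1 was lower in 3D than in 2D (-0.18 ± 0.07, adjusted p = 0.0295). With the trend removed that difference was 0.00517, and the call was also lost with only those groups fitted (adjusted p = 0.0617) and without any 1 of 5 libraries, replicates 2, 3 and 4 of 2D and 3 and 4 of 3D shAnkrd35. With shGFP it was 0.02 (interval -0.13 to 0.18). Nr1d1 shares 263 bases (8.5% of its exonic length) with Thra on the opposite strand, and since the use of strand in counting is not known, reads there could belong to either gene. Thra, a thyroid hormone receptor, had log2 hairpin differences of 0.01 in 3D and 0.04 in 2D, neither called. It was lower in 3D than in 2D with shAnkrd35 (-0.25 ± 0.05, adjusted p = 0.000278) and with shGFP (-0.22 ± 0.05, adjusted p = 0.000764), and its part in the Nr1d1 counts was not tested.

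Nr1d2 had 67.4, 76.6, 64.5 and 82.0 CPM in 3D shAnkrd35 and 83.7, 78.4, 78.6 and 79.2 CPM in 3D shGFP. In 2D it had 46.1, 29.7, 32.2 and 40.1 CPM with shAnkrd35 and 33.6, 61.2, 41.1 and 55.0 CPM with shGFP. Every 3D library lay above every 2D library. The 3D minus 2D difference was 0.99 ± 0.17 with shAnkrd35 (adjusted p = 0.000104) and 0.78 ± 0.17 with shGFP (adjusted p = 0.000826). Like Clock, Nr1d2 is poor in GC (41.8%) and its order within the 2D groups was that of the GC slope. Without the length and GC trend the growth differences were 0.34 with shAnkrd35 and 0.40 with shGFP, both called (adjusted p = 0.00112 and 0.000276). Neither hairpin difference passed (-0.15 in 3D, interval -0.51 to 0.21, and -0.35 in 2D, interval -0.71 to 0.01). In 2D it passed without replicate 1 of 2D shAnkrd35 (-0.46, adjusted p = 0.0332) or of 2D shGFP (-0.50, 0.00694), and was -0.03 with the trend removed.

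Dbp, a PAR bZIP activator and direct target of the activator pair, had 42.0, 41.7, 43.4 and 31.3 CPM in 3D shAnkrd35, against 50.9, 54.3, 47.7 and 46.5 CPM in 3D shGFP. The groups do not overlap, with replicate 4 of 3D shAnkrd35 below its own group (-0.34 ± 0.10, adjusted p = 0.0179). The call was lost without that library (-0.23, adjusted p = 0.0562) and without replicate 2 of 3D shGFP (-0.30, 0.0591). With the length and GC trend removed the 3D difference was still called (-0.40, adjusted p = 0.000115). The 2D levels were 37.4, 45.5, 45.2 and 47.0 CPM with shAnkrd35 and 52.4, 44.0, 51.8 and 55.4 CPM with shGFP, which overlap through replicate 2 of the controls (-0.22 ± 0.10, adjusted p = 0.0773). Without that library the 2D difference passed (-0.29, adjusted p = 0.0284), as it did without replicate 4 of 3D shAnkrd35 (-0.22, 0.0278) and with the length and GC trend removed (-0.41, 4.99e-05). The difference of hairpin effects did not pass (-0.12, interval -0.43 to 0.18), nor did the growth differences (-0.15, interval -0.37 to 0.06 with shAnkrd35 and -0.03, interval -0.24 to 0.19 with shGFP). Dbp shares 539 bases (18% of its exonic length) with Sphk2 on the opposite strand. Sphk2, a sphingosine kinase, was itself lower with shAnkrd35, by -0.25 ± 0.06 in 3D (adjusted p = 0.00439) and -0.33 ± 0.06 in 2D (adjusted p = 0.000237), and its part in the Dbp counts was not tested. Cry2 and Arntl overlap further genes, D930015M05Rik by 295 bases and Gm45355 by 33 bases, which were not analysed here.

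**Figure D3:**
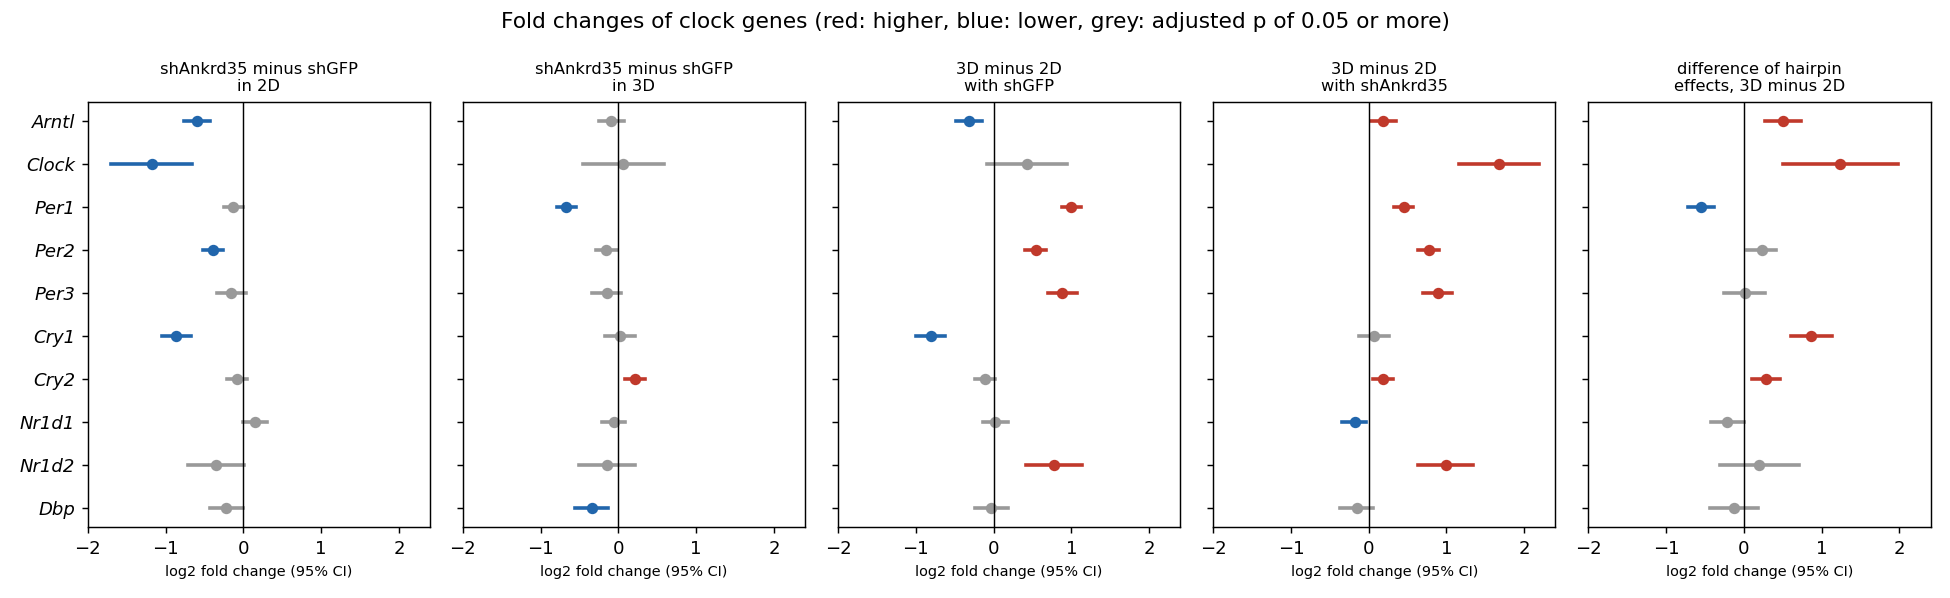
Log2 fold changes of the 10 clock genes (points) with 95% confidence intervals from limma (lines) in the 5 comparisons, 1 panel each, with positive values higher in the group named first. For the hairpin in 2D Arntl, Clock, Per2 and Cry1 lie below 0, and for 3D minus 2D Per1, Per2, Per3 and Nr1d2 lie above 0.

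Between growth types, 6 of the 10 clock genes were called with shGFP, 4 higher and 2 lower in 3D, and 8 with shAnkrd35, 7 higher and 1 lower. The shares of all genes called were 67.2% with shGFP (35.2% higher, 32.1% lower) and 70.4% with shAnkrd35 (34.4% higher, 36.0% lower). With shGFP the groups of all 6 do not overlap, where 33.3% of all genes were higher and 31.6% lower without overlap, and with shAnkrd35 those of Clock, Per1, Per2, Per3 and Nr1d2 do not, where 29.9% of all genes were higher and 29.3% lower without overlap. The median over the 10 was 0.32 with shAnkrd35 and 0.23 with shGFP, against -0.02 and 0.03 over all genes. Every group enters a growth comparison as well as a hairpin comparison, so values of both kinds are not independent of each other. The test of the difference of hairpin effects called 5 clock genes, Arntl, Clock, Cry1 and Cry2 with a positive and Per1 with a negative difference, where 35.8% of all genes were called (17.1% positive, 18.6% negative).

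Within a library, ratios of partner genes do not depend on its size factor, and lengths cancel when a ratio is compared between groups. The Cry1 to Cry2 ratio averaged 0.348 ± 0.0313 in 3D shAnkrd35, 0.398 ± 0.0387 in 3D shGFP, 0.376 ± 0.0449 in 2D shAnkrd35, and it was 0.649 ± 0.0785 in 2D shGFP (n = 4, SD). The lowest 2D shGFP library, at 0.55, lay above the highest of any other group, 0.442. The Per1 to Per2 ratio was 1.43 ± 0.0993 in 3D shAnkrd35 against 2.04 ± 0.0691 in 3D shGFP, without overlap, and 1.79 ± 0.197 in 2D shAnkrd35 against 1.49 ± 0.109 in 2D shGFP, with overlap. The hairpin thus went with a lower ratio in 3D and a higher mean ratio in 2D. The Clock to Arntl ratio was 4.62 ± 0.747 and 4.12 ± 0.377 in 3D with shAnkrd35 and shGFP, against 1.69 ± 0.548 and 2.57 ± 0.855 in 2D. The Nr1d2 to Nr1d1 ratio was 2.14 ± 0.401 and 2.25 ± 0.127 in 3D, against 0.963 ± 0.254 and 1.38 ± 0.454 in 2D. The Clock to Arntl and Nr1d2 to Nr1d1 ratios set a GC-poor gene against one richer in GC (48.2% in Arntl, 56.8% in Nr1d1). Within each 2D group the library with the highest ratio was the one with the lowest GC slope. No test was made on these ratios.

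**Figure D4:**
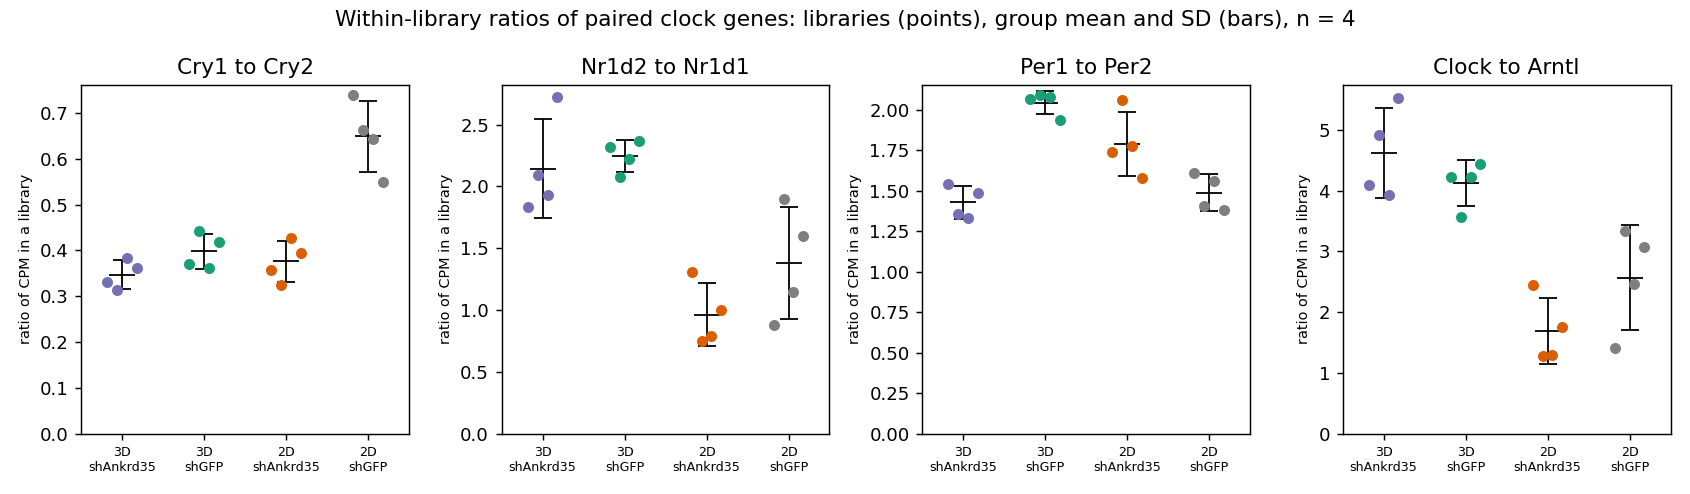
Ratios of CPM of 4 gene pairs within each library (vertical axes, starting at 0) in 3D shAnkrd35, 3D shGFP, 2D shAnkrd35 and 2D shGFP; points are libraries and bars the group mean and SD (n = 4). The Cry1 to Cry2 ratio is between 0.55 and 0.74 in 2D shGFP and between 0.314 and 0.442 elsewhere.

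Per kilobase of annotated exonic sequence, Dbp was the most abundant member in 3 groups, with 16.7 ± 1.18 CPM per kb in 3D shGFP, 14.6 ± 1.44 in 2D shAnkrd35 and 17 ± 1.62 in 2D shGFP. In 2D shAnkrd35 the mean ± SD of Dbp and of Nr1d1 (12.6 ± 0.803) overlap, but within its libraries the Nr1d1 to Dbp ratio of CPM was 0.855 to 0.942. In 3D shAnkrd35 those of Nr1d2 (13.4 ± 1.49), Dbp (13.2 ± 1.87) and Nr1d1 (11.1 ± 1.03) overlap, with a Nr1d1 to Dbp ratio of 0.772 to 0.962. In 3D shGFP that of Per1 (16.1 ± 1.08) overlaps those of its neighbours Dbp and Nr1d2 (14.8 ± 0.465). At the other end, Arntl was the least abundant in 3D, with 2.61 ± 0.20 CPM per kb with shAnkrd35 and 2.78 ± 0.134 with shGFP, and Per3 in 2D, with 2.05 ± 0.165 with shAnkrd35 and 2.29 ± 0.228 with shGFP. With shAnkrd35 in 2D, the mean ± SD of Per3, Clock (2.11 ± 0.615) and Arntl (2.29 ± 0.242) overlap, and in 2D shGFP so do those of Cry2 (5.31 ± 0.213), Per2 (5.21 ± 0.208) and Clock (4.89 ± 1.72). Cry1 stood above Cry2, Per2, Arntl and Per3 in 2D shGFP with 6.51 ± 0.713 CPM per kb, within the spread of Clock. Its mean was below those of Cry2 and Per2 in the other groups, though in 2D shAnkrd35 its mean ± SD overlaps that of Per2 (3.98 ± 0.251). It had 3.74 ± 0.22 in 3D shAnkrd35, 3.71 ± 0.419 in 3D shGFP and 3.57 ± 0.217 in 2D shAnkrd35. An overlap of mean ± SD takes no account of genes being measured in the same libraries. These levels divide by the merged exons of all annotated transcripts and so understate genes whose long exons are not used in these cells.

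Likeness was measured as Pearson's r of log2 values over the 16 libraries, which share 4 groups, so that r holds differences between groups as well as within them. Among the members, Per2 and Per3 were most alike (r = 0.95), followed by Per3 and Nr1d2 (0.93) and Clock and Nr1d2 (0.92), with Nr1d1 opposed to Clock (-0.75). Over all 16 libraries these members were also correlated with the GC slope (r of -0.93 for Per2, -0.91 for Per3, -0.98 for Nr1d2, -0.94 for Clock and 0.63 for Nr1d1). These r too hold differences between groups. Within 3D shGFP, though not within 2D shAnkrd35, Per3 was higher the higher the slope. It had 35.1, 39.7, 42.2 and 45.5 CPM at slopes of -0.49, -0.46, -0.42 and -0.39. The part of the slope in this likeness was not tested. Of 12319 genes, Per3 ranked 147 by likeness to Per2 and 890 by likeness to Nr1d2, and Nr1d2 ranked 904 by likeness to Clock. Arntl and Cry1 had r = 0.85, and Cry1 ranked 36 of 12319 genes by likeness to Arntl, while Arntl ranked 146 by likeness to Cry1. Arntl and Clock, the partners, had r = 0.41. Over all genes, Slc16a1 (0.91), Hspa5 (0.904) and Rap2b (0.901) were most like Arntl, and Dync2h1, Med13 and Usp34 (0.997 each) most like Clock. Arhgap45 (0.991), Hspa1b (0.976) and Bdkrb2 (0.973) were most like Per1, while Lgals8 (0.982), Hnrnpdl (0.98) and Sgcb (0.978) were most like Per2. Pnisr (0.989), Aox1 (0.986) and Arglu1 (0.986) led for Per3, and Erlin1 (0.935), Zfp598 (0.932) and Klhdc10 (0.928) for Cry1. The list for Cry2 began lower, with Mmp15 (0.85), Aoc2 (0.812) and Bcl9l (0.808). Ubald1 (0.915), Emc10 (0.889) and Nutf2 (0.886) were most like Nr1d1, Esco2 (0.99), Mastl (0.99) and Acadsb (0.989) most like Nr1d2, while Wdr83 (0.894) and Tgfb1 (0.883) were among the 3 most like Dbp.

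Other genes of the clock network were counted from 5 lists. Among other clock transcription factors, 9 of 11 were tested, and Npas2 and Hlf were not analysed here. With shAnkrd35, 2 were higher and 2 lower in 3D (44.4%, against 29.7% of all genes called), and 1 was higher and 5 lower in 2D (66.7%, against 57.9% of all genes). Nfil3, the repressor that competes with DBP for the D-box, changed in opposite directions. It averaged 26.3 ± 1.41 CPM in 3D shAnkrd35 against 22.2 ± 0.834 in 3D shGFP, and 35.0 ± 1.99 in 2D shAnkrd35 against 51.6 ± 3.6 in 2D shGFP (SD, n = 4). Its log2 hairpin differences were 0.24 ± 0.06 in 3D (adjusted p = 0.00677) and -0.56 ± 0.06 in 2D (adjusted p = 1.26e-06). Their difference was 0.79 ± 0.09 (adjusted p = 5.86e-06). Ciart, a repressor of the activator pair, was lower with shAnkrd35 in 2D (5.39 ± 0.485 against 8.33 ± 0.451 CPM, -0.62 ± 0.14, adjusted p = 0.00139) and lower in 3D than in 2D with shAnkrd35 (-0.91) and shGFP (-1.49). The E-box repressor Bhlhe40 was lower with shAnkrd35 in 3D (40.1 ± 1.21 against 59.1 ± 1.76 CPM, -0.56 ± 0.05, adjusted p = 1.60e-07). Its call in 2D (-0.13) was lost without replicate 1 or 4 of 2D shAnkrd35 or replicate 1 of 2D shGFP, under quantile normalization and with only the groups compared. Its relative Bhlhe41 was lower with shAnkrd35 in 3D (-0.36 ± 0.07, adjusted p = 0.000548), against -0.08 in 2D, which did not pass. The difference of these effects (-0.28, adjusted p = 0.0295) was no longer called without any 1 of 6 libraries. Of the paralogs, Arntl2 was called in no comparison as fitted, but with the length and GC trend removed it passed in 2D between hairpins (0.32 in place of 0.15, adjusted p = 0.0125). With the trend removed it was also lower in 3D than in 2D, by -0.60 with shAnkrd35 (in place of -0.19, adjusted p = 3.29e-05) and -0.55 with shGFP (in place of -0.22, adjusted p = 9.57e-05). Tef was called once, lower in 3D than in 2D with shAnkrd35 (-0.17, and -0.06, not called, with the trend removed).

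All 18 kinases, phosphatases, ubiquitin ligases and deubiquitinases of clock proteins were tested. With shAnkrd35, 1 was higher and 1 lower in 3D (11.1%, against 29.7% of all genes), and 3 were higher and 9 lower in 2D (66.7%, against 57.9%). Siah2, a ligase that marks REV-ERB proteins for degradation, was lower with shAnkrd35 in 2D (-0.76 ± 0.09, adjusted p = 3.78e-06) and lower in 3D than in 2D with shAnkrd35 (-0.74) and shGFP (-1.31). Gsk3b, a kinase of several clock proteins, was lower in 2D with shAnkrd35 (-0.73 ± 0.08, and -0.43 with the length and GC trend removed). Its growth difference with shAnkrd35 was 0.32, and -0.02 with that trend removed, where the call was lost. Fbxw11, a subunit that degrades PER proteins, was lower in 2D with shAnkrd35 (-0.25 ± 0.04), and so was the casein kinase subunit Csnk2a2 (-0.21, but -0.06 and not called with the trend removed).

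All 16 coactivators and corepressors were tested. In 3D, limma called 0 of them between the hairpins, where 2 were higher and 1 lower at an unadjusted p under 0.05 and 29.7% of all genes were called. With only the 3D groups fitted, 41.3% of all genes were called, and the list was not counted in that fit. Without overlap of the 3D groups, 3 of the 16 were higher and 3 lower with shAnkrd35. Of all genes 18.8% were higher and 19.4% lower without overlap. In 2D, 3 were higher and 8 lower with shAnkrd35 (68.8%, against 57.9% of all genes). Hdac3, the deacetylase that REV-ERB recruits, was higher with shAnkrd35 in 2D (0.31 ± 0.04, adjusted p = 6.64e-06). Tbl1xr1, of the same corepressor complex, was lower (-0.72 ± 0.06, and -0.23 with the length and GC trend removed). Its growth difference with shAnkrd35 was 0.55 and changed sign to -0.25 with the trend removed. The deacetylase Sirt1 was higher in 3D than in 2D, by 1.71 ± 0.20 with shAnkrd35 and 1.07 ± 0.20 with shGFP. Its fall with shAnkrd35 in 2D (-0.60, adjusted p = 0.0178) was lost without replicate 2 or 3 of 2D shAnkrd35 or replicate 4 of 2D shGFP and with only the groups compared. Sin3a, a corepressor scaffold, was lower in 3D than in 2D, by -0.25 with shAnkrd35 and -0.31 with shGFP. Sfpq, an RNA-binding partner of PER, was higher in 3D, by 0.48 with shAnkrd35 and 0.69 with shGFP.

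All 15 genes listed as regulators or targets of the glucocorticoid, cAMP and serum signals that reach the Per genes were tested. With shAnkrd35, 1 was higher and 5 lower in 3D (40%, against 29.7% of all genes), and 4 were higher and 7 lower in 2D (73.3%, against 57.9%). Sgk1 and Errfi1, both induced by glucocorticoid and serum, were lower with shAnkrd35 in 3D (-0.54 ± 0.08 and -0.48 ± 0.05) and higher in 2D (0.34 ± 0.08 and 0.21 ± 0.05). The hairpin effects on them differed by -0.88 ± 0.11 (adjusted p = 1.87e-05) and -0.69 ± 0.07 (adjusted p = 4.97e-06). Sgk1 averaged 59.3 ± 1.79 CPM in 3D shAnkrd35 against 86.0 ± 2.48 in 3D shGFP, and 32.9 ± 4.02 in 2D shAnkrd35 against 25.8 ± 2.3 in 2D shGFP. Tsc22d3, a glucocorticoid target also known as GILZ, was lower with shAnkrd35 in 3D (-0.58 ± 0.08) and in 2D (-0.63 ± 0.08). Fkbp5, another such target, was lower in 2D (-0.23), and its call in 3D (0.13) was lost without any 1 of 6 libraries and with the length and GC trend removed. Atf4, a stress-induced bZIP factor, was lower in 3D than in 2D by -1.26 ± 0.07 with shAnkrd35 and -2.0 ± 0.07 with shGFP, and lower with shAnkrd35 in 2D (-0.83 ± 0.07, adjusted p = 6.36e-08).

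Of 15 symbols listed as clock-controlled outputs 13 were tested, and the untested Ccrn4l is an older name of Noct, which was tested. With shAnkrd35, 2 were higher and 4 lower in 3D (46.2%, against 29.7% of all genes), and 3 were higher and 2 lower in 2D (38.5%, against 57.9%). Between growth types 7 were higher and 2 lower in 3D with shAnkrd35 (69.2%, against 70.4% of all genes), and 8 higher and 2 lower with shGFP (76.9%, against 67.2%), shares near the background. Klf10, a zinc finger repressor, was lower with shAnkrd35 in 3D (-0.23 ± 0.06) and in 2D (-0.21 ± 0.06). Hspa8, a constitutive chaperone, was higher with shAnkrd35 in 3D (0.32 ± 0.05) and in 2D (0.41 ± 0.05). Por, the electron donor of cytochrome P450 enzymes, was higher with shAnkrd35 in 2D (0.29 ± 0.06, and 0.14 with the length and GC trend removed). Dnajb4, a cochaperone, was higher in 3D than in 2D, by 1.07 ± 0.10 with shAnkrd35 and 1.0 ± 0.10 with shGFP, or 0.42 and 0.63 with the trend removed. Tspan4, a tetraspanin, was lower in 3D than in 2D, by -0.99 with shAnkrd35 and -0.74 with shGFP, and its hairpin call in 3D (-0.16) was lost under 14 alternatives.

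**Figure D5:**
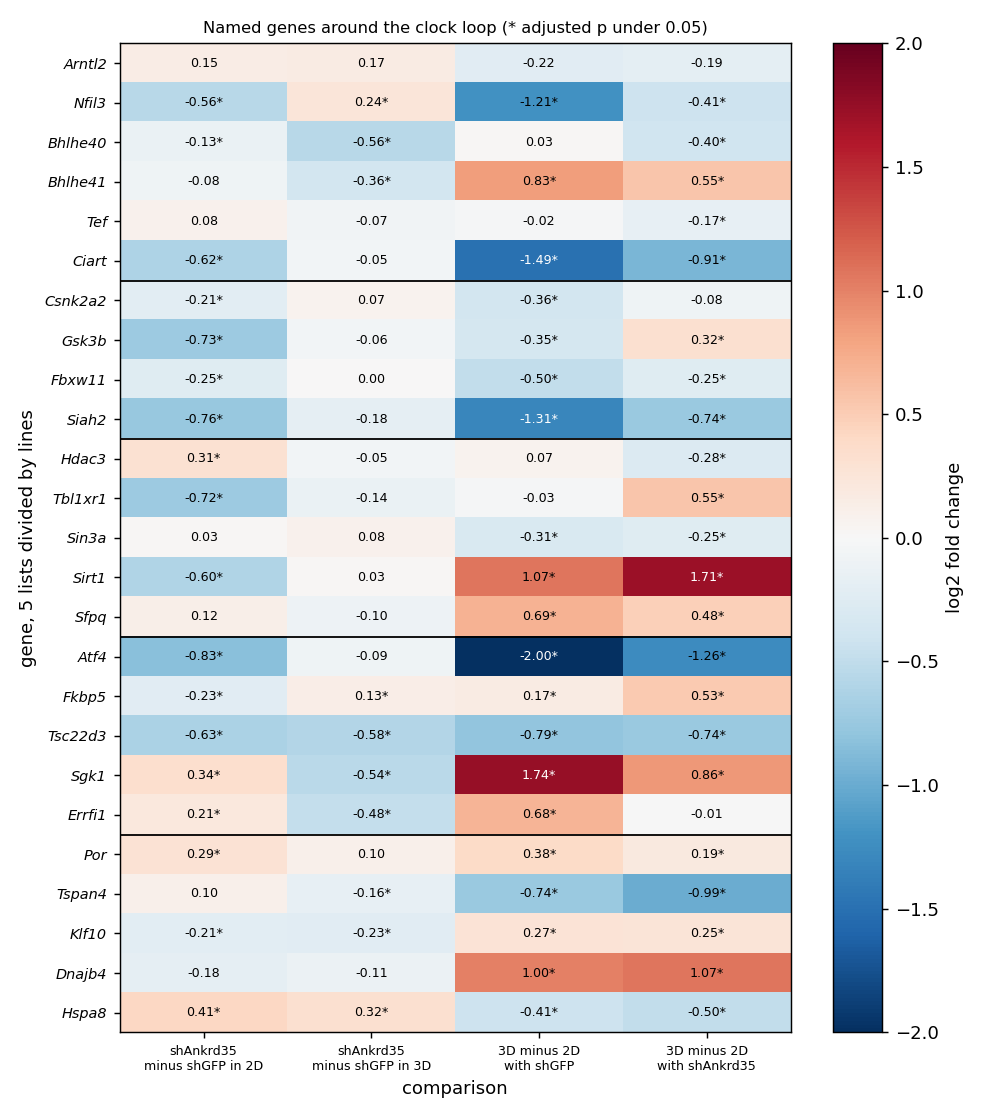
Log2 fold changes of the named genes of the 5 lists (rows, lists divided by lines) in 4 comparisons (columns), with an asterisk at adjusted p under 0.05 by limma and positive values higher in the group named first. Nfil3, Sgk1 and Errfi1 have opposite signs for the hairpin in 3D and 2D, and Siah2, Atf4 and Ciart are lower in 3D with either hairpin.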

How the data were processed

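RNA was extracted with TRIzol, polyadenylated RNA was taken with oligo(dT) beads and cDNA was primed with random hexamers, per the labels' protocols. Reads were trimmed and aligned to mm10 with Trimmomatic 0.38 and STAR 2.5.1b, per the submitters' processing notes. For the counting program, its annotation and its use of strand nothing is given in the sources used here. The deposited values are log2 CPM (counts scaled to the effective library size) made by the authors, with a small prior count. The prior was taken to average 2 reads, which was not checked. To recover reads, the smallest value, taken as that of a gene with no reads, was subtracted on the linear scale. A scale was then searched for in each library that brought values nearest to whole reads. With it 100% of values were whole reads within a tolerance of 0.01. Summed per library they come to 13.82 to 28.72 M, with 193 to 2621 reads for a clock gene, so counting error weighs most on the lowest members, Cry1 and Arntl. No column belonged to a sample outside the series (0 columns).

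The log2 values were fitted with limma 3.58.1 (R 4.3.3, trend and robust options, statmod 1.5.0), with 1 mean for each of the 4 groups and all 16 libraries, on genes with at least 1 CPM in at least 4 libraries. Ankrd35 did not pass this filter. The Benjamini-Hochberg adjustment ran over all 12320 genes in each comparison, and calls are at adjusted p under 0.05. The design written beforehand allowed for a linear unit, and since the file was already on a log2 scale no further logarithm was taken. Gene length, GC content and coordinates came from GENCODE annotation of mm10, matched by symbol.

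Members and lists were chosen with earlier results of these data known. All 10 members are described, and from each list the 5 genes with the smallest moderated F-test p over the 4 groups are named, plus paralogs of members. For each member the 3 named genes most like it are given. A few genes that these rules select are not reported here. Alternatives were no filter, a mean of at least 5 CPM, only the groups compared, quantile normalization, a prior of 0.5 reads, voom weights, the replicate number as a block, a length and GC trend removed within each library, those last settings together, and leaving out each library. The fit was also run on simulated counts with known changes in a single group, the same spread setting for every gene and no GC slope. That run cannot show how calls behave under the GC slope and unequal spread of these libraries.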

Additional observations from a re-analysis of the deposited data

Results flagged for a closer look

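For 5 clock genes the effect of shAnkrd35 in 3D differed from that in 2D by the test of the difference itself (limma, adjusted over all genes, where 35.8% of genes were called). The difference, 3D minus 2D on the log2 scale, was 0.50 for Arntl, 1.24 for Clock, 0.87 for Cry1, 0.29 for Cry2 and -0.55 for Per1. For Clock it was 0.67 with the length and GC trend removed.

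In 3 groups 1 library lay apart from the other 3 by Dixon's criterion. Dbp had 31.3 CPM in replicate 4 of 3D shAnkrd35, below the others of its group. Per1 had 81.5 CPM in replicate 4 of 3D shGFP, below the others, and Nr1d2 had 83.7 CPM in replicate 1 of 3D shGFP, above the others. Chance flags about 1 in 20 groups, and 40 groups were examined.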

How the results depend on the processing

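Of the members' values under all alternatives, 1152 kept direction and side of the threshold, 30 newly passed it, 24 no longer passed it and 34 changed sign. Among values called, only Nr1d1 between 3D and 2D with shAnkrd35 changed sign. With the length and GC trend removed, alone or together with the replicate block, 7 members were called in 2D (0 higher, 7 lower) against 4, where 56.7% of all genes were called with the trend removed and 55.8% with the block as well. With only the groups compared, 5 were called between 3D and 2D with shAnkrd35 (65.5% of all genes), against 8 (70.4%). Leaving out each library gave 4 to 6 calls in 2D, 2 to 4 in 3D, 6 to 7 between growth types with shGFP, 6 to 8 with shAnkrd35 and 5 to 6 for the difference of effects. With the trend removed, with or without the block, these log2 values changed sign: Nr1d1 in 2D (-0.00387), Nr1d1 and Dbp between growth types with shAnkrd35 (0.00517 and 0.13), Cry2 and Dbp with shGFP (0.02 and 0.12), and the difference of effects for Per3 (-0.11), Nr1d2 (-0.06) and Dbp (0.00592). Under quantile normalization Cry1 between growth types with shAnkrd35 (-0.10), Nr1d1 with shGFP (-0.04) and the difference for Per3 (-0.02) did. Leaving out libraries took Clock in 3D over -0.02 to 0.12, Cry1 in 3D over -0.02 to 0.09, Nr1d1 and Dbp between growth types with shGFP over -0.02 to 0.07 and -0.10 to 0.01, and the difference for Per3 over -0.06 to 0.06. The causes were not tested. Between hairpins, deviations of same-numbered libraries from their group means had r of -0.483 to 0.206 in 2D and -0.197 to 0.153 in 3D. Between growth types r was -0.0202 to -0.00712 with shGFP and -0.141 to 0.193 with shAnkrd35. Libraries of a group also differed in GC slope, so these r cannot tell whether same-numbered libraries were prepared together. With the replicate block 5 members were called in 2D, adding Per1 (-0.13, adjusted p = 0.033), and 3, 6, 8 and 5 in the other comparisons, as without it.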
